A study of Mus musculus with 22 samples.

Results

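The transcripts described here are those of 10 genes used to tell cortical interneuron classes apart, Pvalb, Sst, Vip, Npy, Cck, Calb1, Calb2, Reln, Lamp5 and Tac1. They were chosen by name as established class markers, with no threshold on their values, and are 10 of the 37786 genes counted. All 10 passed the minimum of 10 counts in at least 10 mice, as did 17524 genes in all. RNA came from bulk anterior cingulate cortex (ACC) of wildtype male mice, 12 controls that received no light and 10 stimulated mice that received 9 sessions of light. Every mouse of both groups carried channelrhodopsin fused to EYFP in both basolateral amygdalae (BLA), from an AAV5 vector with a CaMKIIa promoter, and an optic fibre over the ACC of one side. The light therefore reached fibres that the BLA sends to the ACC, whereas the tissue sequenced was taken from both sides. Each library was 1 mouse, and the comparison asks whether repeated activation of this pathway was accompanied by other transcript levels in the ACC.

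Cortical interneurons are GABAergic cells that divide into classes with different targets on pyramidal cells. Parvalbumin cells are mostly fast-spiking basket and chandelier cells around the soma and axon initial segment, somatostatin cells mostly contact dendrites, and VIP cells mostly contact other interneurons. Neuropeptide Y, reelin and Lamp5 mark neurogliaform and related cells, calretinin (Calb2) overlaps with the VIP class, calbindin (Calb1) with the somatostatin class, and Tac1 marks subsets of parvalbumin and somatostatin cells. The markers are not exclusive to these cells. Cck and Calb1 are also transcribed by many pyramidal neurons, and in bulk tissue fewer cells of a class and less RNA per cell cannot be told apart.

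The peptide precursor genes lie at chr16:23889573-23890958 for Sst, chr6:49822710-49829507 for Npy, chr9:121489824-121495694 for Cck, chr10:5639218-5647617 for Vip and chr6:7554879-7565834 for Tac1 (GRCm38, GENCODE M21 gene models). Genes of the calcium-binding proteins lie at chr15:78191114-78206400 for Pvalb, chr4:15881264-15908064 for Calb1 and chr8:110137502-110168210 for Calb2. Reln, which encodes a large secreted glycoprotein, spans chr5:21884454-22344702, and Lamp5, which encodes a lysosome-associated membrane protein, spans chr2:136052239-136069917. Reln was the only one of the 10 whose exons overlap those of another gene, sharing 246 bases with Gm10475 on the opposite strand. Whether the counting used strand was not stated, so reads over these bases cannot be assigned to either gene here.

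The cAMP response element, through which CREB acts on activity-regulated genes, is a known feature of the Sst promoter, and the promoters of the marker genes were searched for its letters. The letters searched were the full element TGACGTCA, which reads the same on both strands and contains the shorter one, and the shorter TGACG with its reverse complement CGTCA. RefSeq promoter sequences (GRCm38.p6) were matched for 8 of the 10 genes. The full element occurs within the 250 bases upstream of 508 of 32851 RefSeq starts (1.55%), and the shorter one upstream of 5836 (17.8%). Windows of 30 bases around each match follow, 5′ to 3′ on the strand of the gene, with the matched letters in capitals.
Sst, 48 bases upstream of the RefSeq start, chr16:23890874-23890903, minus strand: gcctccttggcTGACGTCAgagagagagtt
Cck, 47 bases upstream, chr9:121495724-121495753, minus strand: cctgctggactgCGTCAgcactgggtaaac
Vip, 79 bases upstream, chr10:5639127-5639156, plus strand: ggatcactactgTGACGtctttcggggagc
Tac1, 43 bases upstream, chr6:7555006-7555035, plus strand: gctctacaggctCGTCAcgcctgagataaa
Tac1, 197 bases upstream, chr6:7554852-7554881, plus strand: tccctaaaattgCGTCAtttcgaacacaat
The Sst gene was thus the only one of the 8 with the full element. In the GENCODE models the Sst match and the nearer Tac1 match fall inside the first exon, because those models begin farther upstream than the RefSeq start. No match was found in the windows of Pvalb, Npy, Reln or Lamp5.

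Levels of the 10 transcripts differed widely when scaled to exon length (CPM, the share of each count in the TMM-scaled library total, per kilobase of exon). Cck, the precursor of cholecystokinin, was highest, with a median of 433 CPM per kilobase over 22 mice (lowest 223, highest 912). Sst followed with a median of 294, Npy with 198, Lamp5 with 97.0 and Calb1 with 49.0. Vip (median 31.4) and Pvalb (29.55) lay close together. Tac1 (12.5), Calb2 (10.4) and Reln (2.49) were lowest. In this order, each gene exceeded the next in 22 of 22 mice for 7 of 9 neighbouring pairs (two-sided sign-flip permutation test, p = 1e-05, the smallest that 100000 resamples can give, adjusted p = 1.29e-05). Tac1 exceeded Calb2 in 17 of 22 mice (adjusted permutation p = 0.0074). Vip and Pvalb did not differ beyond their spread, with a mean log2 difference of 0.10 ± 0.63 (SD), Vip higher in 15 of 22 mice and an adjusted permutation p of 0.465. Scaling to the longest annotated transcript gave the same order.

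The labels number the libraries from 1 to 23, without number 7, and libraries 1 to 11 (6 controls, 4 stimulated) stood apart from libraries 12 to 23 (6 controls, 6 stimulated). The study used batch and RNA integrity as covariates, which it lists per sample in a file not used here, so the 2 runs of numbers are only what the labels show and are not known to be that batch. Between the runs 11927 of 17524 genes differed at an adjusted p under 0.05 in edgeR. The log2 difference between the runs increased with transcript length over 17516 genes (Spearman rho 0.67, across genes, which are not independent). Total counts ranged from 23090483 to 43668462 per mouse, and the mitochondrial share from 1.63% to 4.81% in libraries 1 to 11 and from 0.982% to 1.90% in libraries 12 to 23. A further pair of mice stood apart, controls 9 and 11 (both in libraries 12 to 23), whose summed CPM of 10 oligodendrocyte genes was 19861 and 14613 against 2368 to 6334 in the other 20 mice. No 2 libraries had counts as close as sampling noise. Cell markers were read beside the ACC label, although they cannot tell the ACC from other cortex. Slc17a7, the vesicular glutamate transporter of cortical pyramidal cells, ranged from 1137 to 2963 CPM and Gad1 from 177 to 416, whereas Drd2, picked from the striatal list, stayed between 0.73 and 4.11 CPM. Levels of the other striatal genes are not given, and those of Slc17a6 and Ttr, genes of other tissue, are given under other observations.

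Each of the 10 markers differed more between the earlier and later libraries than between stimulated mice and controls, by the size of its log2 difference. All but Pvalb differed between the runs at an adjusted p under 0.05 (9 of 10, against 68.1% of all genes), 8 lower in libraries 12 to 23 (34.3% of all genes were lower) and Reln higher (33.7% were higher). For 5 of the 10 the ranges of the runs did not overlap, 4 lower and 1 higher in the later run, against 26.1% of all genes (12.2% lower and 13.9% higher). Cck ranged from 797 to 1190 CPM in libraries 1 to 11 and from 292 to 600 in libraries 12 to 23, Sst from 229 to 459 and from 108 to 228, Npy from 116 to 249 and from 62.6 to 115, and Tac1 from 51.2 to 79.0 and from 28.1 to 43.5. These peptide transcripts were all lower in every mouse of the later run. Their log2 differences were -1.11 ± 0.08 for Cck, -1.04 ± 0.11 for Sst, -1.06 ± 0.11 for Npy and -0.93 ± 0.08 for Tac1 (± SE). Reln was the exception, from 23.8 to 38.9 CPM in libraries 1 to 11 and from 56.6 to 106 in libraries 12 to 23, a log2 difference of 1.35 ± 0.12.

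The differences between the runs were set beside transcript length, in 10 groups of genes of equal number ordered by their longest annotated transcript. Sst, Npy and Cck, with 721, 566 and 799 bases, are in the group of the shortest transcripts, whose median log2 difference was -0.88. Reln, with 11699 bases, is in the group of the longest, whose median was 0.55. Calb2 (-0.58 ± 0.15) lay at the median of its length group, -0.59. Calb1 (-0.42 ± 0.14), Tac1 and Reln lay farthest from theirs. In their own groups, 5.65% of genes had a lower value than Tac1, 11.9% than Calb1 and 91.8% than Reln. Vip (-0.37 ± 0.08) and Lamp5 (-0.29 ± 0.11) differed less. Pvalb differed by -0.43 ± 0.21 (adjusted p = 0.071 in edgeR). Within controls alone the Pvalb difference was -0.01 ± 0.28 and within stimulated mice alone -0.94 ± 0.20. The control value includes controls 9 and 11. The other 4 controls of libraries 12 to 23 had a mean of 22.2 CPM, against 34.7 in the 6 controls of libraries 1 to 11.

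**Figure D1:**
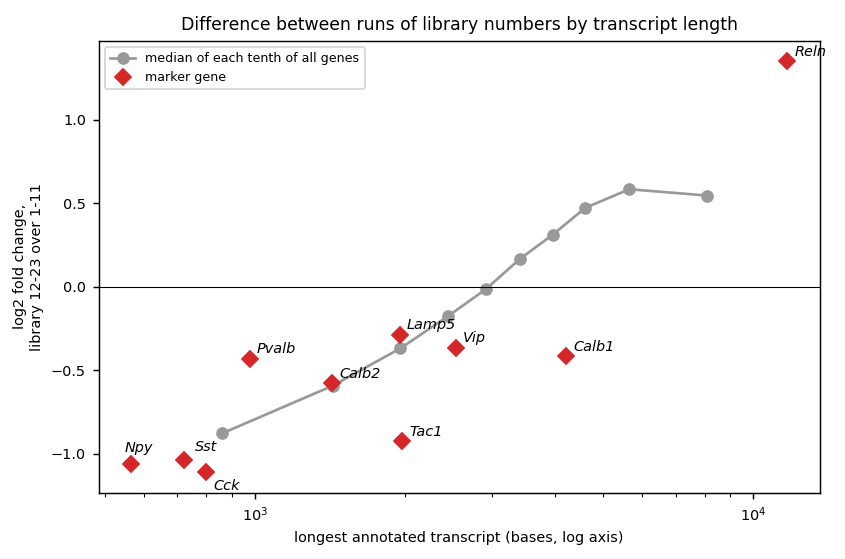
Log2 fold change of libraries 12 to 23 over libraries 1 to 11 (vertical axis) against the length of the longest annotated transcript in bases (horizontal log axis), with the medians of 10 length groups of all genes as grey points and the 10 marker genes as red diamonds. The group medians run from -0.88 for the shortest transcripts to 0.58, and Tac1 and Calb1 lie below the line while Reln lies above it.

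Stimulation itself, the comparison the design implies, gave no call among the 10 transcripts at an adjusted p under 0.05 (edgeR, group as the only term). Their log2 differences ran from -0.24 (Pvalb) to 0.32 (Calb2), with standard errors of 0.12 to 0.29 and adjusted p-values of 0.9998. The same test called 0 of 17524 genes (0%), with 632 genes at an unadjusted p under 0.05 (3.61%) and 0 of the 10 among them. The DESeq2 Wald test called 3 genes, none of the 10. A higher mean in stimulated mice was seen for 7 of the markers and a lower one for 3 (Pvalb, Vip and Lamp5), with a median log2 difference of 0.13 against 0.01 over all genes tested. Without controls 9 and 11 the split was 5 and 5 (median 0.013), with limma 5 and 5 (median 0.0087), and without stimulated mouse 2 it was 6 and 4 (median 0.054).

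With the library run added as a covariate, 4 of the 10 reached an unadjusted p under 0.05, all higher in stimulated mice, namely Cck, Calb2, Npy and Sst (4 of 10, against 6.05% of all genes higher and 11.5% in either direction). None passed adjustment, the smallest adjusted p being 0.33 for Cck, and no gene of the 17524 did in this fit. The DESeq2 Wald test with the run as a covariate, added after seeing the data, called 33 genes, none of the 10. The count of 4 changed when stimulated mouse 2 was left out, which also left 3 stimulated mice in libraries 1 to 11. Without that mouse, 1 of the 10 reached an unadjusted p under 0.05 (Cck, against 5.76% of all genes higher), and without controls 9 and 11 the same 4 did (against 4.75%). Within libraries 1 to 11 alone, 4 of the 10 reached an unadjusted p under 0.05, all higher (Sst, Npy, Calb2 and Tac1, against 2.21% of all genes higher), and 0 did without stimulated mouse 2 (5.01% of all genes in either direction). For Calb2 that mouse lay far above the mean of the 4 stimulated mice of that run (55.4 against 30.2 CPM). For Sst (404 against 404), Npy (236 against 227) and Tac1 (68.3 against 69.0) it lay near the mean. Within libraries 12 to 23 alone, Cck and Calb1 were higher and Pvalb lower at that threshold (4.06% of all genes higher and 8.3% lower), and 0 did without controls 9 and 11 (4.99%). Leaving these 2 out took the controls of that run from 6 to 4. Their Cck, 347 and 397 CPM, lay within the range of the other controls of that run, 292 to 467 CPM. Each of the 10 transcripts had 251 counts or more in every mouse, but the reads came from amplified cDNA without molecular identifiers, so these counts do not give the number of molecules sampled.

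**Figure D2:**
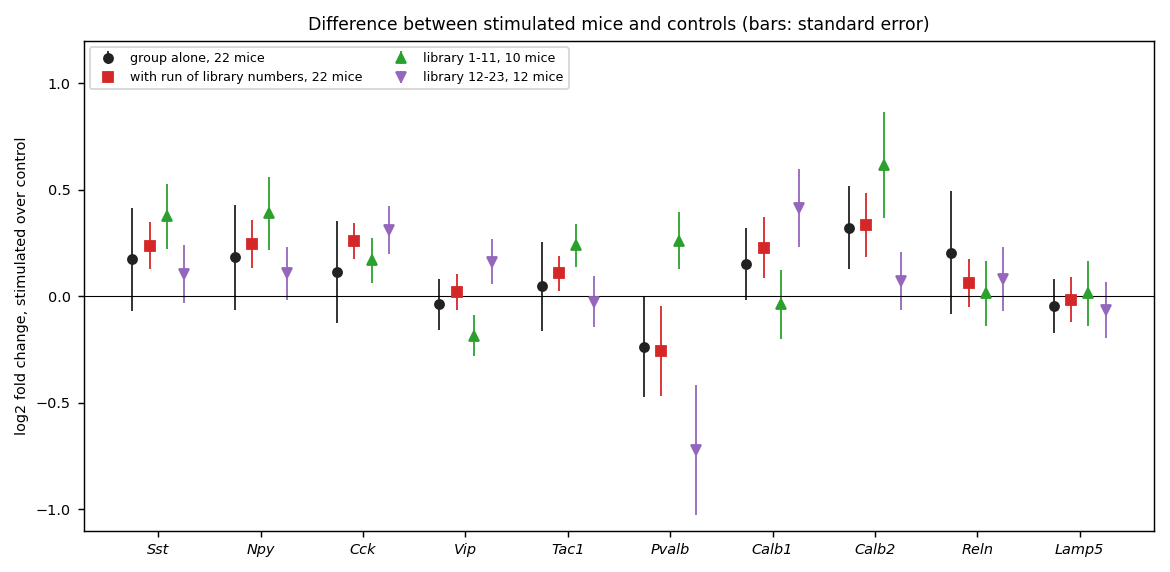
Log2 fold change of stimulated mice over controls for each marker gene with its standard error, from edgeR with group alone (black circles), with the library run added (red squares), in libraries 1 to 11 alone (green triangles) and in libraries 12 to 23 alone (purple triangles). Sst, Npy, Cck, Calb2 and Reln are above 0 in all 4 of these fits, whereas Pvalb is 0.26 in libraries 1 to 11 and -0.72 in libraries 12 to 23.

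Cck had the smallest p of the 10 once the run was in the fit. In libraries 1 to 11 its 6 controls ranged from 797 to 1024 CPM (median 940) and the 4 stimulated mice measured 917, 988, 1190 and 971. In libraries 12 to 23 the controls ranged from 292 to 467 (median 420) and the stimulated mice from 413 to 600 (median 519). The groups overlapped in both runs, with 4 of 6 stimulated mice of the later run above every control of that run. The difference was 1.197-fold, 0.26 ± 0.08 on the log2 scale (unadjusted p = 0.0045, adjusted p = 0.33, edgeR with the run), 0.17 ± 0.10 in libraries 1 to 11 and 0.31 ± 0.11 in libraries 12 to 23. With group alone it was 0.11 ± 0.24.

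Sst, the defining transcript of the dendrite-targeting class, showed its larger difference in the earlier run. There the controls ranged from 229 to 384 CPM (median 333) and the stimulated mice measured 313, 404, 441 and 459, so that 3 of 4 stimulated mice lay above every control. In the later run the controls ranged from 108 to 196 (median 171) and the stimulated mice from 120 to 228 (median 183), with wide overlap. The log2 differences were 0.38 ± 0.15 and 0.10 ± 0.14 in the 2 runs, and 0.24 ± 0.11 with the run as a covariate (unadjusted p = 0.042, adjusted p = 0.42, edgeR).

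Npy, the precursor of neuropeptide Y, which somatostatin and neurogliaform cells share, followed Sst. Controls of libraries 1 to 11 ranged from 116 to 224 CPM (median 183), and the stimulated mice measured 174, 236, 247 and 249. Again 3 of 4 stimulated mice exceeded every control. In libraries 12 to 23 controls ranged from 62.6 to 110 (median 91.0) and stimulated mice from 82.2 to 115 (median 99.5). The log2 differences were 0.39 ± 0.17 and 0.11 ± 0.12, and 0.25 ± 0.11 with the run (unadjusted p = 0.036, adjusted p = 0.41, edgeR).

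Vip and Tac1, the other 2 peptide precursors, differed by 0.02 ± 0.08 and 0.11 ± 0.08 on the log2 scale with the run in the fit (adjusted p = 0.94 and 0.62, edgeR). Vip ranged from 115 to 145 CPM (median 125) in controls of libraries 1 to 11, and the stimulated mice measured 110, 111, 127 and 95.7, 3 of them below every control. In the later run Vip ranged from 69.8 to 104 (median 86.0) in controls and from 87.2 to 126 (median 93.6) in stimulated mice. Its log2 differences had opposite signs in the runs, -0.18 ± 0.09 and 0.16 ± 0.11, and an interaction term fitted over all 22 mice, 0.39 ± 0.15, did not pass adjustment (unadjusted p = 0.016, adjusted p = 0.57, edgeR). Tac1, which encodes substance P and neurokinin A, ranged from 51.2 to 67.05 CPM in controls of the earlier run against 67.09, 68.3, 61.7 and 79.0 in stimulated mice. It was 0.24 ± 0.10 higher there on the log2 scale (unadjusted p = 0.035, adjusted p = 0.87, edgeR), with 3 of 4 stimulated mice above every control. In the later run Tac1 ranged from 29.97 to 38.8 in controls and from 28.1 to 43.5 in stimulated mice, a difference of -0.02 ± 0.12.

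Pvalb, which encodes the calcium buffer of fast-spiking cells, had the largest SD of the 10 with all mice included. The SD of log2 CPM within group and run was 0.52, larger than that of 82.8% of all genes (median 0.25), and 0.35 without controls 9 and 11, where Calb2 had 0.38. Vip had the smallest SD, 0.18. In libraries 1 to 11 the controls ranged from 25.5 to 41.1 CPM (median 36.4) and the stimulated mice measured 36.9, 41.6, 51.7 and 34.8. In the later run the controls ranged from 15.5 to 60.9 (median 26.5) and the stimulated mice from 11.7 to 29.9 (median 21.0). The 2 highest controls of that run were controls 9 and 11, at 60.9 and 57.2 CPM, and the other 4 ranged from 15.5 to 27.4, within the range of the stimulated mice. The log2 difference was 0.26 ± 0.13 in libraries 1 to 11 and -0.72 ± 0.30 in libraries 12 to 23 (unadjusted p = 0.031, adjusted p = 0.36, edgeR). The later value was -0.08 ± 0.22 without controls 9 and 11, and the group-only value went from -0.24 ± 0.24 to -0.01 ± 0.22. The interaction term over all 22 mice, -0.93 ± 0.39 on the log2 scale, had an unadjusted p of 0.024 and an adjusted p of 0.58. Vip and Pvalb were the 2 of the 10 at an unadjusted p under 0.05 for this term, against 8.01% of all genes.

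The oligodendrocyte genes moved with Pvalb in those 2 mice, and their part in the Pvalb values was not tested. All 10 genes of the list fixed for oligodendrocytes had a lower mean in stimulated mice, each at an unadjusted p under 0.05 with group alone (2.61% of all genes were lower) and 0 at an adjusted p under 0.05, and their summed CPM ranged from 3234 to 19861 in controls and from 2368 to 5849 in stimulated mice. Without controls 9 and 11, 0 of the 10 reached an unadjusted p under 0.05, and the control sums ranged from 3234 to 6334. The gene whose level was most like that of Pvalb over 22 mice, once each gene was centred within group and run, was Opalin, an oligodendrocyte membrane protein (r = 0.93, and 0.82 without controls 9 and 11). Opalin stood at 58.4 and 47.9 CPM in controls 9 and 11 and at 5.70 to 20.9 in the other 20 mice. Arsg (r = 0.89) and Tshz2 (r = 0.89) followed, and with those controls left out they stood at 0.77 and 0.82.

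**Figure D3:**
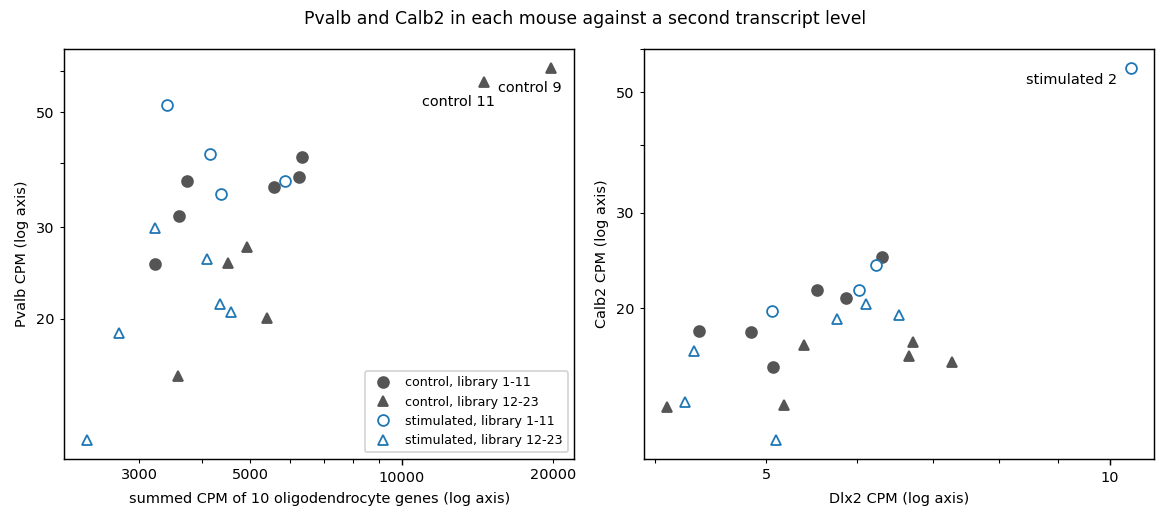
Left, Pvalb CPM against the summed CPM of 10 oligodendrocyte genes in each mouse, and right, Calb2 CPM against Dlx2 CPM, all on log axes, with controls filled, stimulated mice open, circles for libraries 1 to 11 and triangles for libraries 12 to 23. Controls 9 and 11 lie apart at 60.9 and 57.2 CPM of Pvalb, and stimulated mouse 2 lies apart at 55.4 CPM of Calb2.

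Calb1, which encodes calbindin, was higher in stimulated mice of the later run. Its controls there ranged from 103 to 268 CPM (median 171) and the stimulated mice from 177 to 290 (median 247), with 2 of 6 stimulated mice above every control. The log2 difference was 0.42 ± 0.18 (unadjusted p = 0.038, adjusted p = 0.37, edgeR), and 0.21 ± 0.16 without controls 9 and 11, which held the 2 lowest control values, 103 and 143. In libraries 1 to 11 controls ranged from 194 to 330 (median 295) and stimulated mice measured 206, 310, 314 and 244, a difference of -0.04 ± 0.16. With the run as a covariate the difference was 0.23 ± 0.14 (adjusted p = 0.54).

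Calb2, which encodes calretinin, had the largest mean difference of the 10, and 1 mouse carried much of it. Stimulated mouse 2 measured 55.4 CPM, whereas the other stimulated mice of libraries 1 to 11 measured 19.8, 24.0 and 21.6 and their controls ranged from 15.6 to 24.9 (median 19.5). In libraries 12 to 23 controls ranged from 13.2 to 17.3 (median 16.1) and stimulated mice from 11.4 to 20.3 (median 17.9). With the run as a covariate the log2 difference was 0.34 ± 0.15 (unadjusted p = 0.035, adjusted p = 0.41, edgeR), and 0.12 ± 0.10 without stimulated mouse 2 (unadjusted p = 0.25). Calb2 tracked Dlx2, a homeobox gene of the GABAergic lineage (r = 0.80 over 22 mice centred within group and run, and 0.66 without stimulated mouse 2). That mouse also had the highest Dlx2, 10.4 CPM against 4.10 to 7.27 in the other 21 mice, and the highest Dlx5, 10.1 against 2.56 to 8.37. Its Dlx1, 23.6 CPM, and Dlx6, 2.40, lay within the ranges of the other 21 mice, 19.1 to 28.3 and 0.78 to 2.61.

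Reln and Lamp5 differed between the groups by less than their standard errors with group alone, with the run added and within each run. Reln controls ranged from 23.8 to 38.9 CPM in libraries 1 to 11, where stimulated mice measured 24.1, 31.1, 33.7 and 37.99. In the later run Reln ranged from 56.6 to 96.5 in controls and from 61.8 to 106 in stimulated mice. The difference was 0.21 ± 0.29 on the log2 scale with group alone and 0.06 ± 0.11 with the run. Lamp5 ranged from 262 to 360 CPM in controls of the earlier run, against 247, 364, 411 and 233 in stimulated mice, and from 203 to 314 against 210 to 317 in the later run. Its difference was -0.02 ± 0.11 with the run.

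**Figure D4:**
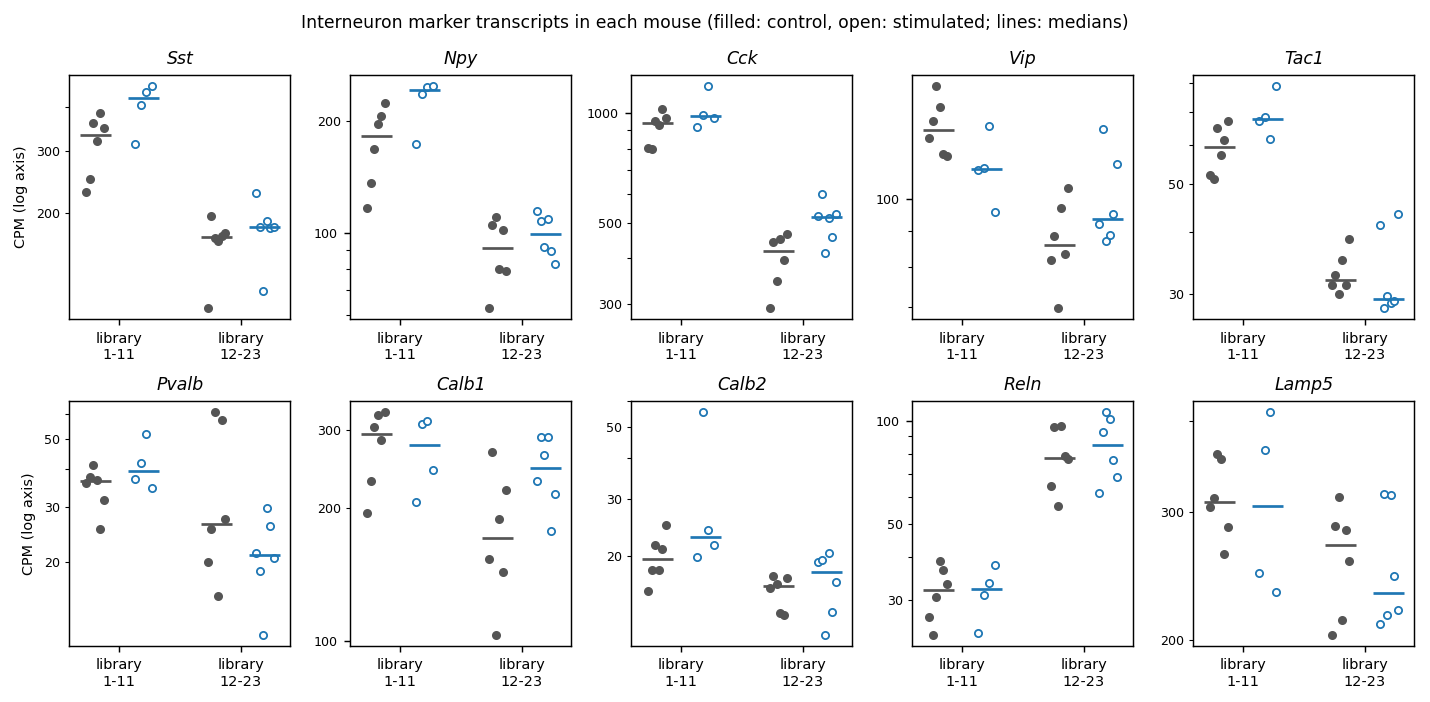
CPM of each marker transcript in each mouse on a log axis, with controls filled, stimulated mice open and a line at the median of each group within libraries 1 to 11 and 12 to 23. The runs separate fully for Sst, Npy, Cck, Tac1 and Reln, while stimulated mice and controls overlap within each run for all 10 genes.

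Sst, Npy and Cck varied together from mouse to mouse in libraries 1 to 11. Correlations of log2 CPM were computed within each run over the mice of both groups, so that they also hold the differences between the groups, 90 tests in all (45 pairs in 2 runs), and 3 Pearson correlations passed an adjusted permutation p under 0.05, all positive and all in libraries 1 to 11. By Spearman's rho, 1 of these 3 pairs passed, and so did 1 other pair, Vip and Cck in libraries 12 to 23. In libraries 1 to 11 Sst and Npy had a Pearson r of 0.94 (permutation p = 0.00022, adjusted 0.0198, n = 10) and a Spearman rho of 0.90 (permutation p = 0.00087, adjusted 0.0391). Sst and Cck had an r of 0.88 (permutation p = 0.00111, adjusted 0.0426) and a rho of 0.83 (permutation p = 0.00494, adjusted 0.126). Npy and Cck had an r of 0.84 (permutation p = 0.00142, adjusted 0.0426) and a rho of 0.79 (permutation p = 0.00883, adjusted 0.132). Without the 2 mice farthest from the median of the first gene, r stood at 0.79, 0.67 and 0.59 for these pairs. Controls 1 and 2 had the lowest Sst, Npy and Cck of that run. They also had the highest mitochondrial shares of all mice, 4.41% and 4.81%. Whether the mitochondrial share bears on these correlations was not tested.

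In libraries 12 to 23 the same pairs had r of 0.68, 0.71 and 0.46 over 12 mice, with adjusted permutation p-values of 0.151, 0.12 and 0.36, none of which passed. Without the 2 mice farthest from the median of the first gene, r stood at 0.52, 0.46 and 0.01 there. Vip and Cck had the highest r of that run, 0.79 (permutation p = 0.00285, adjusted 0.0641), with a rho of 0.88 (permutation p = 0.00037, adjusted 0.0333), and an r of -0.11 in libraries 1 to 11. Pvalb and Calb1 had an r of -0.63 (adjusted permutation p = 0.153), which came to 0.03 without the 2 mice farthest in Pvalb. Pvalb and Lamp5 were positive in both runs, at 0.72 and 0.62 (adjusted permutation p = 0.127 and 0.153). The same sign held in both runs for 32 of 45 pairs.

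**Figure D5:**
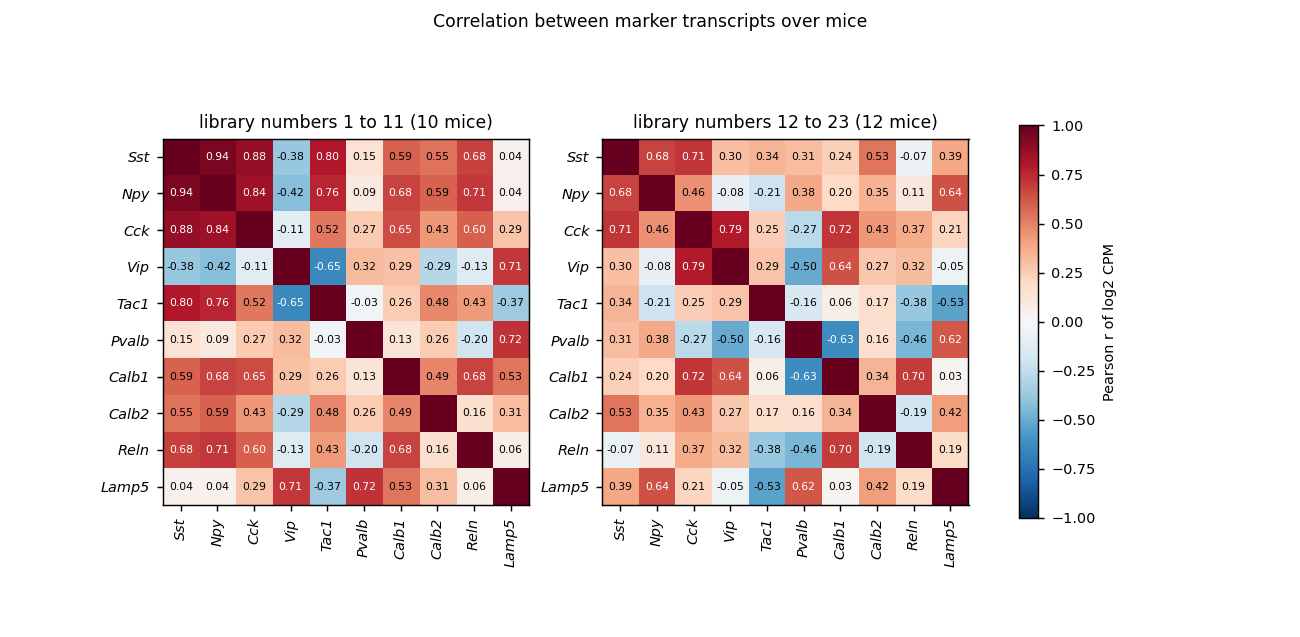
Pearson r of log2 CPM between marker transcripts over the 10 mice of libraries 1 to 11 (left) and the 12 mice of libraries 12 to 23 (right), with controls and stimulated mice together. The block of Sst, Npy and Cck holds the highest values on the left, 0.84 to 0.94, while Vip goes with Cck on the right at 0.79 and not on the left, at -0.11.

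Genes whose levels were most like each marker, after centring within group and run over 22 mice, were also of other kinds than interneuron genes, and they are given as a description without a test. For Calb1 they were Prmt8 (r = 0.93), Car10 (0.92) and Gucy1a1 (0.92), for Lamp5 they were Tmem215 (0.89), the GABA-A receptor delta subunit gene Gabrd (0.88) and Cd34 (0.87), and for Reln they were Arfgef3 (0.92), Atrn (0.90) and the NMDA receptor subunit gene Grin2b (0.90), all 3 with transcripts of 8745 bases or more. For Sst they were 2210016L21Rik (0.93), Hspbp1 (0.91) and Atp5d (0.90), for Npy they were Sez6l2 (0.93), Pum3 (0.92) and AI837181 (0.92), and for Cck they were the proteasome subunit genes Psmc3 (0.91) and Psmd8 (0.89) with Cbr1 (0.89). Vip had Tusc3 (0.82) and Cinp (0.81), Tac1 had Tuba1a (0.85), Rbp4 (0.79) and Nbdy (0.78), and Calb2 had Cyp2u1 (0.72) and Gm44878 (0.71) after Dlx2. Without stimulated mouse 2 the r of Calb2 with Cyp2u1 was 0.39.

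Set against the RNA of GABAergic cells, as the log2 ratio of each marker to the summed CPM of Gad1, Gad2 and Slc32a1, the genes of GABA synthesis and vesicular loading, the mean differences between stimulated mice and controls are given within each run, without a test. Sst stood at 0.28 in libraries 1 to 11 and 0.10 in libraries 12 to 23, Npy at 0.30 and 0.12, and Cck at 0.06 and 0.32. Vip stood at -0.29 and 0.16, Tac1 at 0.13 and -0.05, Pvalb at 0.15 and -0.59, Calb1 at -0.14 and 0.46, Calb2 at 0.39 and 0.05, Reln at -0.09 and 0.07, and Lamp5 at -0.13 and -0.07. The sign was thus the same in both runs for Sst, Npy, Cck and Calb2 (higher) and Lamp5 (lower), and opposite for the other 5. Without stimulated mouse 2 the values in libraries 1 to 11 were 0.15 for Calb2, 0.17 for Cck, 0.23 for Tac1, 0.24 for Pvalb and 0.01 for Reln. Without controls 9 and 11 those in libraries 12 to 23 were -0.17 for Pvalb, 0.15 for Calb1, 0.01 for Vip, 0.19 for Npy, 0.21 for Cck, -0.16 for Tac1, -0.02 for Lamp5, -0.05 for Calb2 and -0.09 for Reln.

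Other genes of the same cell classes and pathways also gave 0 calls at an adjusted p under 0.05 between the groups in edgeR, in each list fixed for them. Of 9 pan-GABAergic genes 8 had a higher mean in stimulated mice (median log2 difference 0.09), none at an unadjusted p under 0.05, and Slc32a1, the vesicular GABA transporter, had the smallest p (0.33 ± 0.16, unadjusted p = 0.052). Adding the run, 1 was higher at that threshold (6.05% of all genes). Within libraries 1 to 11 all 9 were higher (median 0.11), 2 at that threshold (2.21% of all genes), and within libraries 12 to 23 3 were higher and 6 lower (median -0.03), 0 at that threshold. Of 10 further somatostatin-class genes 8 were higher (52.5% of all genes were), with 2 at an unadjusted p under 0.05 (0.999% of all genes in that direction, and 1 of the 10 without controls 9 and 11), Pdyn (0.31 ± 0.13, unadjusted p = 0.026), the prodynorphin gene, and Tacr1 (0.82 ± 0.29, unadjusted p = 0.0093), the receptor of the Tac1 product substance P. Pdyn ranged from 22.5 to 58.2 CPM in controls and from 41.8 to 63.9 in stimulated mice, and Tacr1, a transcript of low level, from 0.48 to 2.11 and from 1.06 to 5.12. With the run as a covariate 8 of these 10 were higher, 3 at an unadjusted p under 0.05 (6.05% of all genes). Within libraries 1 to 11, 6 were higher and 4 lower, 1 higher at that threshold (2.21%). Within libraries 12 to 23, 8 were higher, 3 at that threshold (4.06%). Of 10 further parvalbumin-class genes 8 were lower, 1 at an unadjusted p under 0.05 (Pthlh, -0.30 ± 0.13, unadjusted p = 0.030, against 2.61% of all genes lower). Without controls 9 and 11, 8 of these 10 had a higher mean and 0 reached that threshold, and the same counts held within libraries 1 to 11. Within libraries 12 to 23, 9 had a lower mean, 3 at that threshold (8.3% of all genes).

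Of 5 tested genes of the medial ganglionic eminence lineage, from which parvalbumin and somatostatin cells arise, 2 were higher and 3 lower, with 0 at an unadjusted p under 0.05, and Lhx6 stood at 0.14 ± 0.12. Of 7 genes of the caudal lineage, the origin of VIP cells and many Lamp5 cells, 6 were higher and 0 reached an unadjusted p under 0.05, with Prox1 at -0.45 ± 0.27. Of these 7, 4 had a higher mean with the run as a covariate and 1 was lower at that threshold (5.45% of all genes). Within libraries 1 to 11, 3 had a higher mean and 1 was higher at that threshold (2.21%), and within libraries 12 to 23, 5 had a higher mean and 1 was lower at it (8.3%). The VIP-class list had 6 of 10 higher (Npy1r at 0.16 ± 0.09) and the Lamp5-class list 6 of 9 tested lower (Pax6 at -0.23 ± 0.16), neither with a gene at an unadjusted p under 0.05 with group alone. Adding the run as a covariate, 8 of 10 VIP-class genes were higher, 2 at that threshold, and 3 were higher at it within libraries 12 to 23 and 1 within libraries 1 to 11. The Lamp5-class list had 0 at that threshold with the run, 1 lower within libraries 1 to 11 and 2 lower within libraries 12 to 23, and the shares of all genes are those given above. Without controls 9 and 11, 4 of the 9 Lamp5-class genes were lower. Nkx2-1, on the medial lineage and Lamp5 lists, did not pass the count minimum.

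Receptors and processing enzymes of the peptides were measured beside their ligands. Of 12 tested receptors for somatostatin, VIP, neuropeptide Y, cholecystokinin and tachykinins 10 were higher in stimulated mice (median 0.14), and Tacr1, which is also on the somatostatin-class list, was the 1 at an unadjusted p under 0.05 (175 of 17524 genes were higher at it). With the run as a covariate 2 of the 12 were higher at that threshold (6.05% of all genes). Within each run 7 of the 12 had a higher mean, with 1 higher at the threshold in libraries 1 to 11 (2.21% of all genes) and 4 higher and 1 lower in libraries 12 to 23 (4.06% and 8.3% of all genes). Sstr5, Cckar and Tacr2 did not pass the count minimum. Of 10 genes of peptide maturation and secretory granules 5 were higher and 5 lower (8 and 2 with the run as a covariate), and Scg2 had the smallest p (0.17 ± 0.08, unadjusted p = 0.056). Of 7 genes of the reelin pathway 6 were higher (median 0.07) and 0 reached an unadjusted p under 0.05, with Dab1, the adaptor of the reelin receptors, at 0.07 ± 0.07. With the run as a covariate 4 were higher and 3 lower (median 0.0071), and within libraries 1 to 11 2 were higher and 5 lower (median -0.06), 1 of them lower at an unadjusted p under 0.05 (3.34% of all genes). Between the runs all 7 were higher in libraries 12 to 23 at an adjusted p under 0.05, as was Reln, where 33.7% of all genes were and the difference increased with transcript length.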

How the data were processed

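RNA sequencing measured transcripts in bulk ACC of 12 control and 10 stimulated mice. Full-length cDNA amplified from total RNA was tagmented and sequenced from one end. Per the submitters' processing notes, the authors used cutadapt 1.10 for trimming, STAR 2.5.3a for alignment to mm10 and HTSeq 0.6.1p1 for counting per Ensembl gene, and deposited raw counts. The authors also deposited a signal, each count over the size factor of its library, which carries no depth, and the log2 fold changes and p-values of a DESeq2 1.22.1 comparison. Neither was used here.

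Groups, replicate and library numbers came from the labels. Nothing pairs the mice, and p-values measure the spread between them. Counts were tested with edgeR 4.0.16 (R 4.3.3, TMM, glmQLFTest, Benjamini-Hochberg over every gene reaching 10 counts in 10 or more mice), with group as the only term because the study's per-sample RNA integrity and batch were not used here. Standard errors are the log2 fold change over the square root of F. CPM are TMM-scaled, and correlations used log2 CPM with a prior count of 2 and 100000 resamples, two-sided. DESeq2 1.42.0, limma 3.58.1 voom with sample quality weights, other filters, a replicate block and the run of library numbers were alternatives. Fits with the run under DESeq2 or limma, and without controls 9 and 11 or stimulated mouse 2, were added after seeing the data. Scripts were tested on simulated counts. Amplified reads carry no molecular identifiers.

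The 10 genes and the other gene lists were chosen with earlier results of these data known. Of each list, up to 3 genes with the smallest unadjusted p under 0.05 were named, or the 1 with the smallest p, and for each marker the 3 genes with the highest r, of which 1 is not reported here.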

Additional observations from a re-analysis of the deposited data

Results flagged for a closer look

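Calb2 in stimulated mice was the 1 marker transcript in which a single mouse lay apart from its group of 10. The gap between stimulated mouse 2 and the next mouse was 0.531 of the whole range of log2 CPM, above the critical value of Dixon's test for 10 values. Such a value arises by chance in about 1 of 20 groups, and all 10 transcripts were looked at in the stimulated group. The 12 controls were not tested in this way.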

How the results depend on the processing

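Between the groups, 0 of the 10 markers passed an adjusted p under 0.05 in any fit. The number of genes that did was 3 with the DESeq2 Wald test, 33 with DESeq2 and the run, 1 with limma and the run, 1 without controls 9 and 11 and 1 without them with the run, and 0 in the other 12 alternatives. Genes at an unadjusted p under 0.05, 632 with group alone, numbered 2015 with the run, 974 in libraries 1 to 11, 2165 in libraries 12 to 23, 1857 with limma, 2371 with no count minimum, 2184 with DESeq2 and the run, 2860 with limma and the run, 1430 without controls 9 and 11 and 1907 without stimulated mouse 2, the last 2 with the run.

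Same-numbered mice are different animals. The mean correlation of their deviations from group means was 0.308 (8 of 10 pairs over 0.1), against 0.468 for same and 0.416 for other numbers within a run, and 3 controls correlated best with their own number. The replicate block gave 1291 genes at an unadjusted p under 0.05 and 0 adjusted, Reln at 0.33 (unadjusted p = 0.044) and Tac1 at -0.060, against 0.05 with group alone.

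Log2 differences that changed sign were uncalled before and after. Pvalb stood at 0.26 in libraries 1 to 11 (0.26 without stimulated mouse 2) and at 0.11 with the run without controls 9 and 11. Vip stood at 0.023 with the run, 0.021 with limma, 0.024 with DESeq2 and the run, 0.020 with limma and the run, and 0.042 with the run without stimulated mouse 2, and in libraries 12 to 23 at 0.16, or 0.084 without controls 9 and 11. Limma gave Sst -0.036, Npy -0.0033 and Tac1 -0.20. Tac1 also stood at -0.025 in libraries 12 to 23 (-0.072 without controls 9 and 11), -0.040 without controls 9 and 11 and -0.024 without stimulated mouse 2, and Cck at -0.00013 without controls 9 and 11. Calb1 stood at -0.038 in libraries 1 to 11 (-0.11 without stimulated mouse 2), and Reln at -0.0077 in libraries 12 to 23 without controls 9 and 11. Lamp5 stood at 0.015 in libraries 1 to 11, without controls 9 and 11 at 0.048 with the run and 0.055 in libraries 12 to 23, and at 0.069 with limma and the run.

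Between the runs of library numbers, Pvalb passed adjustment with limma (-0.68), with 10 counts in every mouse (-0.49) and in stimulated mice alone (-0.94). In stimulated mice alone Vip (-0.14), Calb1 (-0.14) and Lamp5 (-0.30) did not pass, nor did Lamp5 in controls alone (-0.27). Scaled to the longest transcript, mean log2 levels per kilobase were 9.62 for Cck, 5.36 for Vip, 2.16 for Reln, 7.15 for Lamp5 and 4.48 for Tac1, against 8.91, 4.94, 1.14, 6.56 and 3.70. The cause of these changes was not tested. Batch and RNA integrity per mouse were not used here.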

Other observations

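Transcripts of other cells in the tissue were measured beside the interneuron markers. Of 14 excitatory neuron genes 12 had a higher mean in stimulated mice (median log2 difference 0.12), and the 1 at an unadjusted p under 0.05 was lower (as were 2.61% of all genes), Slc17a6 (-0.65 ± 0.23, unadjusted p = 0.0092, edgeR with group alone), a vesicular glutamate transporter of subcortical neurons, at 10.2 to 49.4 CPM in controls and 9.20 to 18.9 in stimulated mice. Without controls 9 and 11 none of the 14 reached that threshold with group alone, and within libraries 1 to 11 7 were higher and 7 lower (median -0.03). With the run as a covariate 2 were higher and 2 lower at that threshold (1060 and 955 of 17524 genes). With the run and without controls 9 and 11, 1 was higher and 2 lower at it (833 and 597 of 17524 genes). Of 8 tested striatal genes 7 were higher (Drd1 at 0.11 ± 0.14) and of 8 septal and claustral genes 4 were, with Gnb4 at 0.23 ± 0.10 (unadjusted p = 0.036), and without controls 9 and 11 none of these 8 reached that threshold.

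Mobp (-0.96 ± 0.32), Ermn (-0.83 ± 0.29) and Mbp (-0.79 ± 0.29), genes of the myelin sheath and of oligodendrocytes, had the smallest p of their list. Within libraries 1 to 11, 6 of the 10 oligodendrocyte genes had a higher mean (median 0.04), and within libraries 12 to 23 all 10 had a lower one (median -1.31). All 8 astrocyte genes had a lower mean in stimulated mice, with 0 at an unadjusted p under 0.05 (Gjb6 at -0.17 ± 0.13). Of 8 microglial genes 6 were higher (P2ry12 at -0.14 ± 0.12), and of 8 endothelial and mural genes 4 were (Rgs5 at -0.20 ± 0.12). With the run as a covariate all 8 endothelial and mural genes were lower, 1 at an unadjusted p under 0.05 (5.45% of all genes), as they were within libraries 1 to 11, where 2 reached it (3.34% of all genes, list median -0.25). All 4 tested choroid plexus and ependymal genes were lower, 2 at an unadjusted p under 0.05 (2.61% of all genes), Ttr (-1.86 ± 0.59) and Clic6 (-1.28 ± 0.40), and within libraries 1 to 11 none reached it. Ttr, which encodes transthyretin, ranged from 2.07 to 127 CPM in controls and from 1.41 to 13.8 in stimulated mice. None of these genes passed an adjusted p under 0.05.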
